A study of Mus musculus with 24 samples.

Results

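Adipogenic transcription factors are the DNA-binding proteins that turn precursor cells into fat cells and keep mature fat cells in that state. The mRNAs of 9 of them were followed here through mouse white fat: Pparg, Cebpa, Cebpb, Cebpd, Ebf1, Klf15, Nr1h3, Rxra and Zfp423. They were taken as a named list, each symbol was matched to 1 Ensembl gene, and all 9 were found among the 49585 gene identifiers in the count tables. All 9 passed the low-count filter in every comparison.

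RNA-seq was done on whole pieces of fat, and the mice were all male and C57BL/6J. The 24 libraries form 6 groups. In the first experiment, subcutaneous adipose tissue (SAT, the fat under the skin) was taken from wild-type mice fed for 20 weeks with a high-fat diet (60% of calories as fat, 4 libraries) or a low-fat diet (10%, 4 libraries). In the second experiment, Azin2-/- mice and wild-type littermates all received the 60% fat diet for 8 weeks, and none had a low-fat diet. SAT came from Azin2-/- mice (3 libraries) and wild-type mice (5 libraries), and epigonadal adipose tissue (GAT, the fat beside the testis and epididymis) from Azin2-/- mice (4 libraries) and wild-type mice (4 libraries). Azin2 encodes an antizyme inhibitor that acts on polyamine metabolism. The deletion is not restricted to a cell type in the labels, and ages at tissue collection are not given in them.

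In fat cell formation, C/EBPb and C/EBPd (encoded by Cebpb and Cebpd) appear early after hormonal stimulation and activate Pparg and Cebpa. PPARg binds DNA as a pair with RXRa (Rxra), and PPARg and C/EBPa then maintain each other and switch on the genes of lipid storage, insulin-responsive glucose uptake and adipokine secretion. Zfp423 and Ebf1 act at the precursor stage, and Ebf1 also acts in mature fat cells. Klf15 is a glucocorticoid-induced zinc finger factor of fat, muscle and liver. Nr1h3 encodes LXRa, the oxysterol receptor, which is also abundant in macrophages.

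On GRCm38 the genes lie on several chromosomes. Pparg is at chr6:115360951-115490399, Klf15 at chr6:90462576-90475238 and Cebpa at chr7:35119293-35121928, all on the plus strand. Cebpb is at chr2:167688915-167690418, Rxra at chr2:27676440-27762957, Ebf1 at chr11:44617317-45008091 and Cebpd at chr16:15887286-15891031, again on the plus strand. Nr1h3 at chr2:91184061-91202834 and Zfp423 at chr8:87661810-87959595 are on the minus strand. Pparg, Cebpa and Ebf1 overlap annotated antisense transcripts, Cebpb lies inside Tmem189 and Cebpd overlaps Spidr on the opposite strand, and Nr1h3 overlaps Gm13783 on the same strand. The library kit keeps strand. Because no source used here states the strand setting at counting, reads of such overlapping genes cannot be told apart.

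The bases just before the gene start are shown for the members on which the comparisons below turn most: Klf15 and Cebpa, which differed most with diet, and Cebpb, whose level relative to Cebpa is described further down. The most downstream of the 3 listed Pparg starts, inside the gene, is added because of its 2 C/EBP core matches. Sequences are from RefSeq for GRCm38.p6, read 5′ to 3′ on the plus strand, and each is 250 bases long. Capitals mark matches, on either strand, to the C/EBP core TTGCNNAA, the E-box CACGTG, the cyclic AMP response element half-site TGACG or the nuclear receptor half-site AGGTCA. No capital letter belongs to more than 1 match. The window before Klf15 is chr6:90462326-90462575, that before Cebpa is chr7:35119043-35119292, that before Cebpb is chr2:167688665-167688914 and that before the internal Pparg start is chr6:115421816-115422065.
Klf15: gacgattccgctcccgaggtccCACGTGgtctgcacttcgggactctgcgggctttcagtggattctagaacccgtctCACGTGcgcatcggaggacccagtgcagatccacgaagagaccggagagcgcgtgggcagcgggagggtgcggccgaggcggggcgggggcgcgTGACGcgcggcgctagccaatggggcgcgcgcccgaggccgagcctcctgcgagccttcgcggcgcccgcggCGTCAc
Cebpa: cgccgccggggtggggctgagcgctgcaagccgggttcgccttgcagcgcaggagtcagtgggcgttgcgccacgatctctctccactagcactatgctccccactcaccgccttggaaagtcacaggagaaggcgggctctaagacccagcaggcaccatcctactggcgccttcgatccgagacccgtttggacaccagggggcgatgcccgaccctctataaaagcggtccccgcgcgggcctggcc
Cebpb: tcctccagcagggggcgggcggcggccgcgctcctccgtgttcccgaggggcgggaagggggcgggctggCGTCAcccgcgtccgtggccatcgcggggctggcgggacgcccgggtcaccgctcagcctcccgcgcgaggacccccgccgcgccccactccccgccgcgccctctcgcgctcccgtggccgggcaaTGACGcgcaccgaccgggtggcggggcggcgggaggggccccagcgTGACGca
Pparg: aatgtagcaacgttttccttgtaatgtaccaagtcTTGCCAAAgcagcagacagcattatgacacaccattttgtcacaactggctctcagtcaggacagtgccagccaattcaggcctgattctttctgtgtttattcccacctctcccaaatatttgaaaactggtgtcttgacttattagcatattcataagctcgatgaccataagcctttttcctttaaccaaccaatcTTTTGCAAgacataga

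The Klf15 window held 2 E-boxes and 2 TGACG matches, the Cebpb window 3 TGACG matches, and the Cebpa window none of the 4 motifs. Over 32851 windows of the same length from 27025 genes, 9.56% held the C/EBP core, 6.02% the E-box, 17.8% TGACG and 14% the nuclear receptor half-site. That half-site was also matched before the other 2 Pparg starts, before a second Rxra start and before 1 of 2 Zfp423 starts, and the other Zfp423 start had a C/EBP core. No match to these letters was found before Ebf1 or Nr1h3. In all 8 of 9 members had a listed promoter, with 14 starts, and Cebpd was not among them. A match describes the letters only.

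Total counts ranged from 31.96 to 46.62 megareads per library, and every member had at least 510 reads in every library (the lowest was for Cebpd). Adipocyte markers were present in all libraries, and all 8 were above 0 throughout. In all, 6 libraries held transcripts of neighbouring tissue at levels for which they were left out in alternatives. The library labelled SAT low-fat replicate 1 had 19476.6 CPM of summed epididymis markers (10 genes), 4.21 CPM of subcutaneous depot markers where its group otherwise had 101 to 113 CPM, and 4430.8 CPM of adipocyte markers against 18193.8 to 21062.5 CPM. GAT libraries had 3.94 to 7.91 CPM of subcutaneous depot markers. Its epigonadal depot and mesothelium markers summed to 126.4 CPM, against 5.17 to 9.02 CPM in the rest of its group and 34.3 to 557.8 CPM in GAT libraries. These values go against its label as subcutaneous fat, so the member results for diet are given with and without it. GAT wild-type replicate 3 had 4931.0 CPM of epididymis markers, while the other 22 libraries stayed at or below 0.727 CPM. Muscle transcripts (12 skeletal muscle markers, summed) reached 85950.2 CPM in replicate 2 of Azin2-/- SAT and 72080.7 CPM in replicate 3 of the wild-type SAT beside it. At 20 weeks they reached 6597.8 CPM in high-fat replicate 6, and 23759.5 and 1170.1 CPM in low-fat replicates 5 and 6. Azin2 mRNA was lower in Azin2-/- than in wild-type libraries without overlap in both depots but was not absent: 8.07 to 11.7 CPM against 16.1 to 25.3 CPM in SAT, and 12.3 to 18.7 CPM against 22.4 to 25.7 CPM in GAT. By edgeR the log2 fold changes were -0.97 (SE 0.203, adjusted p = 0.244) in SAT and -0.74 (SE 0.141, adjusted p = 0.0408) in GAT. Which part of the gene was deleted is not given in the labels.

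Levels per kilobase of exon put Cebpa far above the rest. In normalised FPKM (CPM divided by exonic length in kilobases), Cebpa averaged 243.8 to 417.0 over the 6 groups, and Pparg, Cebpb, Nr1h3 and Rxra followed. Cebpd was lowest in every group, with group means of 3.92 to 6.06 FPKM. In the 20-week high-fat group, for example, Cebpa had 248.4 ± 9.58 FPKM, Pparg 64.4 ± 2.98, Cebpb 62.7 ± 5.65, Nr1h3 41.0 ± 1.80, Rxra 39.7 ± 2.58, Ebf1 19.8 ± 1.61, Zfp423 14 ± 1.30, Klf15 11.9 ± 2.02 and Cebpd 3.92 ± 0.317 FPKM (SD, n = 4).

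**Figure D1:**
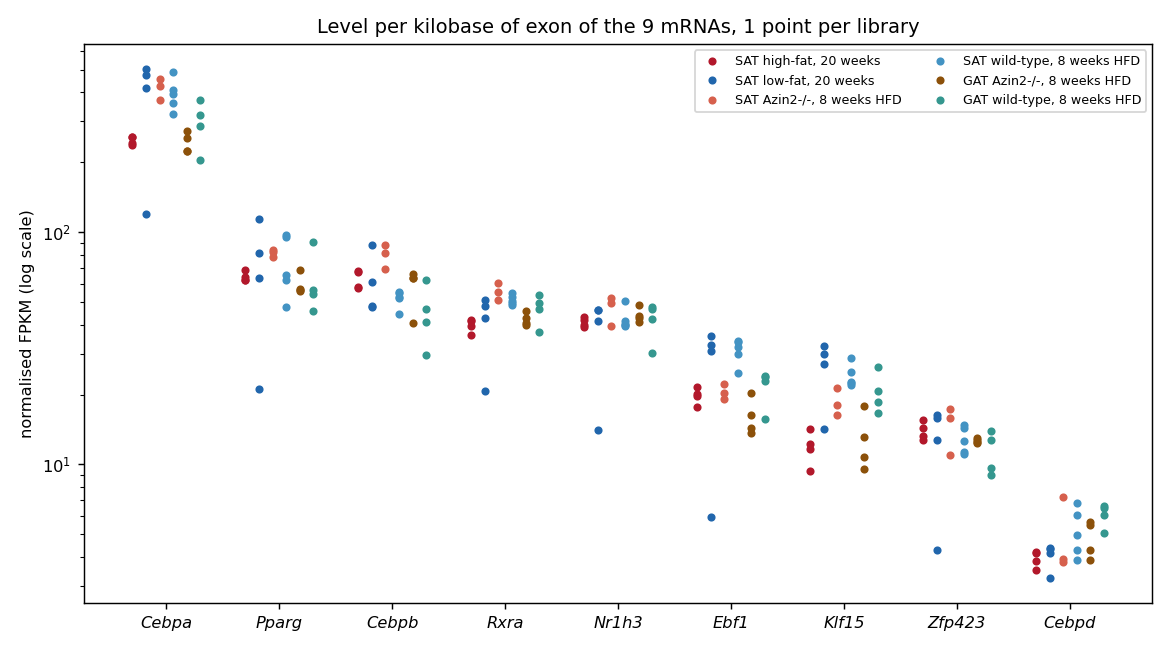
Normalised FPKM (vertical log axis) of the 9 mRNAs, 1 point per library, coloured by group. Cebpa, with group means of 243.8 to 417.0 FPKM, lies above all others, and Cebpd, with group means of 3.92 to 6.06 FPKM, below them.

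Between groups, values are given as normalised CPM, library-scaled by TMM over the 24 libraries. When the 6 groups were ordered by mean for each member, 44 of 45 neighbouring pairs of groups had overlapping libraries. The exception was Cebpb, for which SAT of Azin2-/- mice (104.5 to 132.4 CPM) lay above the next group, SAT of the 20-week high-fat mice (86.8 to 102.3 CPM). Cebpa, Cebpb, Pparg, Rxra, Nr1h3 and Zfp423 had their highest mean in SAT of Azin2-/- mice, Ebf1 in SAT of wild-type mice at 8 weeks, Klf15 in SAT of low-fat mice and Cebpd in GAT of wild-type mice. Without low-fat replicate 1, the low-fat group had the highest mean also for Cebpa (1225.5 CPM), Pparg (254.0 CPM), Ebf1 (323.5 CPM) and Zfp423 (84.0 CPM). On the log2 scale, with low-fat replicate 1 included, the group means spanned 1.07 for Klf15, the widest of the 9, and 0.41 for Zfp423, the narrowest. Nr1h3 spanned 0.48, with its lowest mean, 93.1 CPM, in the low-fat group. Without low-fat replicate 1 that mean was 112.3 CPM, inside the 103.1 to 118.2 CPM of the other groups, so which member is narrowest depends on that library.

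**Figure D2:**
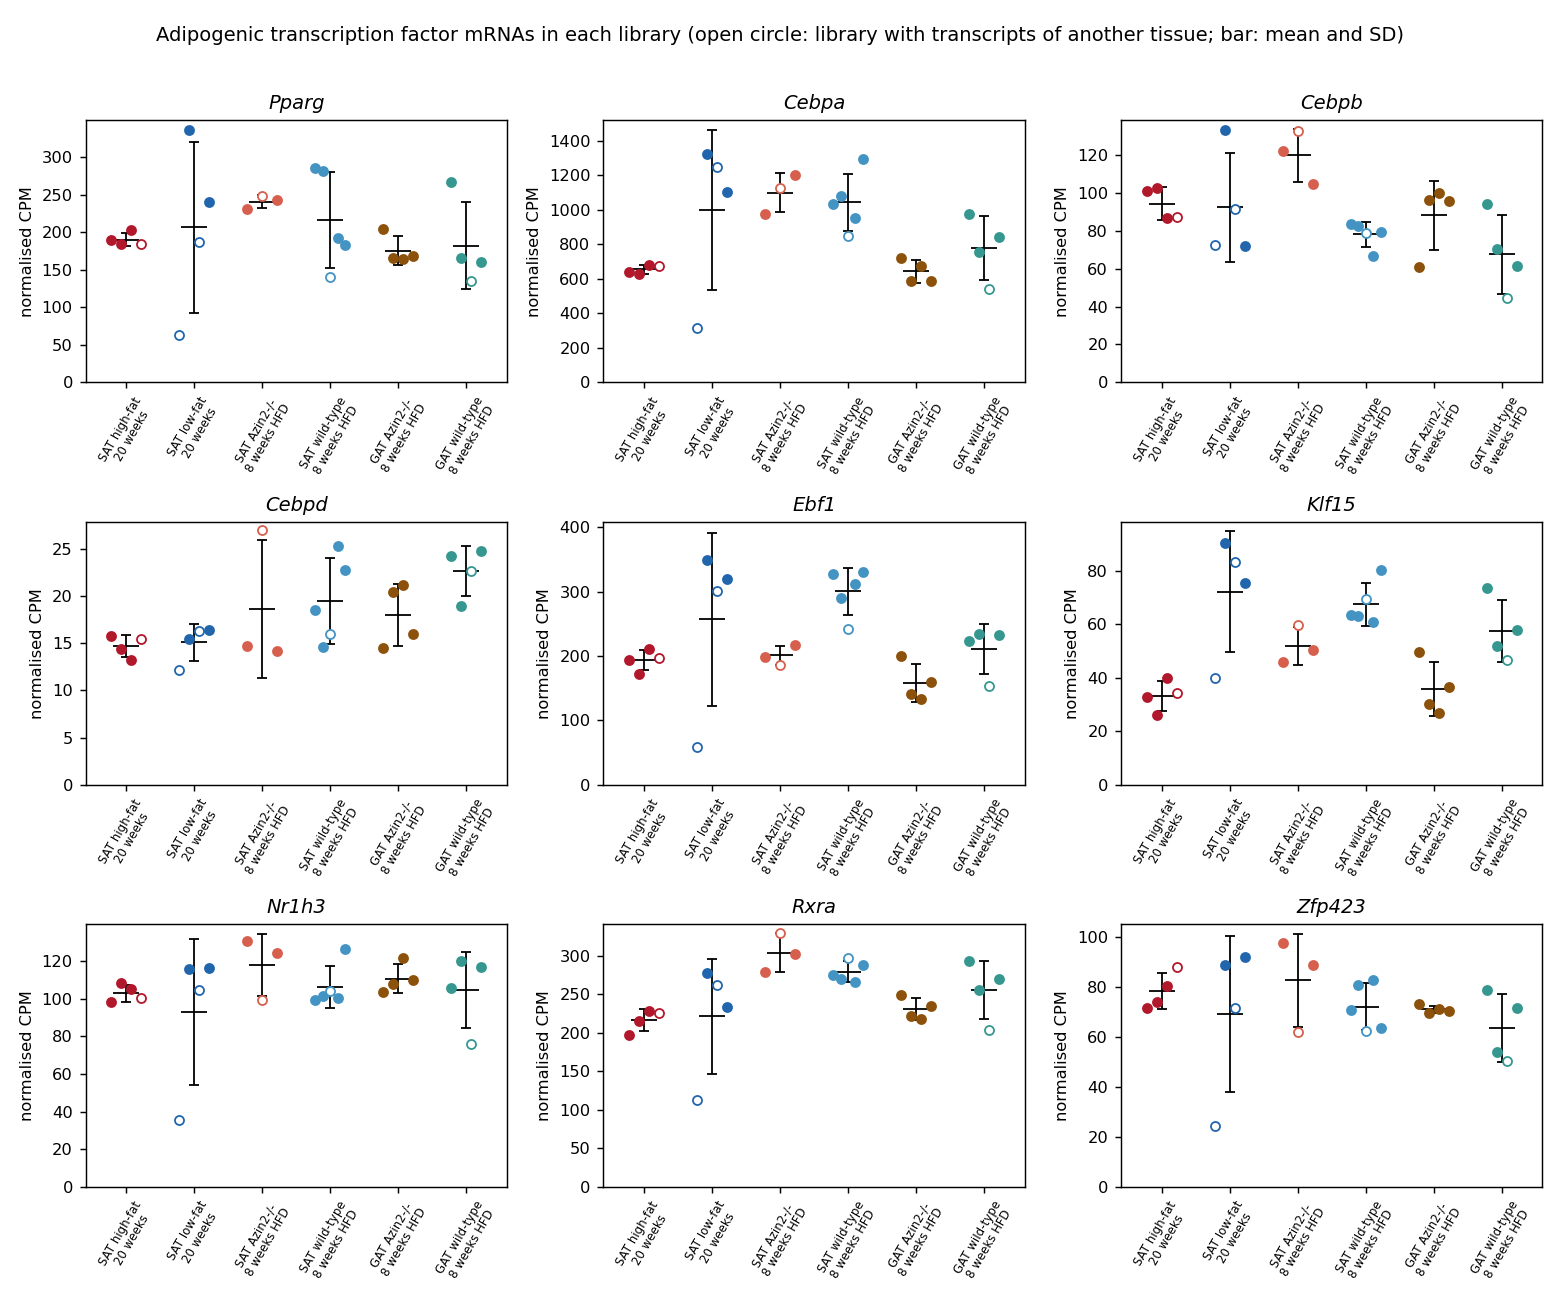
Normalised CPM (vertical axis, from 0) of each mRNA in the 24 libraries by group. Points are libraries, open for the 6 left out in alternatives for transcripts of another tissue, and bars are the mean and SD. Low-fat replicate 6, with 1170.1 CPM of muscle markers, is drawn filled. Low-fat replicate 1 is the lowest point of its group for 8 of the 9 genes, with Klf15 at 39.7 CPM, while the 20-week high-fat libraries sit at 26.0 to 39.7 CPM.

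Long-term high-fat feeding was compared with low-fat feeding in SAT to ask how the mRNAs differ in obesity of long standing. Klf15 was lower on the high-fat diet, and Cebpa, Ebf1 and Rxra joined it when the low-fat library with epididymal transcripts was left out. Cebpb, Cebpd, Nr1h3 and Zfp423 were not called either way, and neither was Pparg. With all 8 libraries, 1 of 9 members was called, against 21.2% of all genes tested in either direction and 10.4% lower (edgeR quasi-likelihood test, Benjamini-Hochberg adjusted p under 0.05). Without low-fat replicate 1, 4 of 9 were called, all lower, against 47.0% of all genes in either direction and 23.5% lower. Those 4 did not overlap between diets, which held for 51.9% of all genes in either direction and 26.2% lower. The median log2 fold change over the 9 members was then -0.26, beside -0.02 over all genes tested.

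Klf15 had 32.6, 26.0, 39.7 and 34.2 CPM in the high-fat libraries, against 39.7, 90.4, 83.4 and 75.3 CPM in the low-fat libraries. Low-fat replicate 1 is the value of 39.7, level with the highest high-fat library, and the other 3 low-fat libraries lie well above. The log2 fold change was -1.14 (SE 0.244, adjusted p = 0.0158), and -1.33 (SE 0.131, adjusted p = 0.000161) without low-fat replicate 1. The call was lost, with estimates of -1.13, -1.04 and -1.15 and adjusted p of 0.0557, 0.0566 and 0.0549, when high-fat replicate 3, 4 or 6 was left out while low-fat replicate 1 stayed in.

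Cebpa, the C/EBP factor of mature fat cells, had 639.6, 627.2, 678.2 and 674.1 CPM in the high-fat libraries, against 317.0, 1323.7, 1249.0 and 1103.8 CPM in the low-fat libraries. Low-fat replicate 1 was below every high-fat library and the other 3 above, so the fold change as labelled, -0.62 (SE 0.385), was not called (adjusted p = 0.273). Without that library it was -0.91 (SE 0.076, adjusted p = 5.88e-05), with no overlap. Ebf1 showed the same layout: 193.2, 172.6, 210.7 and 196.2 CPM in high-fat libraries against 57.7, 349.8, 300.4 and 320.3 CPM in low-fat libraries. Its log2 fold change was -0.42 (SE 0.464, adjusted p = 0.532) as labelled and -0.75 (SE 0.081, adjusted p = 0.000181) without low-fat replicate 1.

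Rxra, the shared partner of PPARg and LXRa, had 197.5, 214.7, 228.5 and 226.0 CPM in high-fat libraries, against 112.8, 277.5, 261.7 and 233.7 CPM in low-fat libraries. The difference was small, at -0.05 in log2 units (SE 0.247, adjusted p = 0.899) as labelled and -0.26 (SE 0.079, adjusted p = 0.0265) without low-fat replicate 1. Pparg had 189.8, 184.0, 202.7 and 184.1 CPM in high-fat libraries, against 62.7, 335.5, 186.7 and 239.8 CPM in low-fat libraries. The low-fat values of Pparg spread widely around the narrow high-fat range, and the call was missed both as labelled (-0.13, SE 0.412, adjusted p = 0.838) and without replicate 1 (-0.42, SE 0.171, adjusted p = 0.0785). When the muscle-rich high-fat replicate 6 and low-fat replicate 5 were left out as well, Pparg was called (-0.57, adjusted p = 0.0186), as was Zfp423 (-0.26, adjusted p = 0.0291), and Rxra was not (adjusted p = 0.0823). That made 5 of 9 called, all lower, against 38.5% of all genes in either direction and 18.6% lower.

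The early C/EBP factors did not follow Cebpa. Cebpb averaged 94.3 ± 8.5 CPM in high-fat and 92.2 ± 28.7 CPM in low-fat libraries (SD, n = 4 each), and Cebpd 14.7 ± 1.19 and 15.1 ± 1.98 CPM. Without low-fat replicate 1, their log2 fold changes were -0.07 (SE 0.198) and -0.14 (SE 0.082), with adjusted p of 0.792 and 0.209. Nr1h3 (-0.13, SE 0.060, adjusted p = 0.108) and Zfp423 (-0.11, SE 0.101, adjusted p = 0.418) were likewise not called, and as labelled both had positive values, 0.13 and 0.17.

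The FPKM of Cebpb relative to Cebpa was 0.276, 0.286, 0.224 and 0.226 in the high-fat libraries, against 0.401, 0.176, 0.128 and 0.114 in the low-fat libraries. The high-fat libraries lay above 3 of the 4 low-fat libraries and below low-fat replicate 1. Among the 8-week libraries the ratio was 0.220, 0.206 and 0.153 in Azin2-/- SAT against 0.107 to 0.162 in wild-type SAT, and 0.148, 0.286, 0.260 and 0.285 in Azin2-/- GAT against 0.128 to 0.168 in wild-type GAT. In each depot the Azin2-/- libraries were thus mostly above, with overlap in the lowest. The ratio was chosen after the values were seen and is given as a description.

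**Figure D3:**
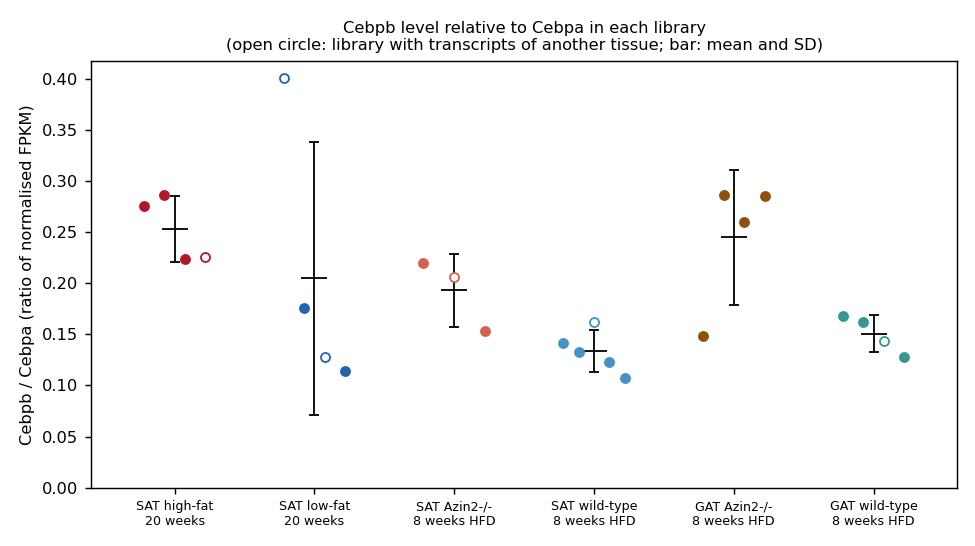
Cebpb FPKM divided by Cebpa FPKM (vertical axis, from 0) in each library by group, with mean and SD. The 20-week high-fat libraries lie at 0.224 to 0.286, and low-fat replicate 1, an open circle, is the highest of all at 0.401.

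Cell type markers moved along with diet. The 10 macrophage markers summed to 1001 to 1245 CPM in high-fat against 266 to 395 CPM in low-fat libraries, and 9 of 10 were called higher with or without low-fat replicate 1. The 8 adipocyte markers summed to 12897.1 to 14767.2 CPM in high-fat libraries against 18193.8 to 21062.5 CPM in the low-fat libraries other than replicate 1, and without that library 6 of 8 were called lower and 1 higher, while with all 8 libraries none of the adipocyte markers was called. The 9 adipose progenitor markers summed to 1445.1 to 1757.9 CPM in high-fat against 868.1 to 1115.3 CPM in low-fat libraries, and 5 were called higher (7 without low-fat replicate 1). In bulk tissue, fewer cells of a type and less RNA per cell cannot be told apart, and the part of cell composition in the member changes was not tested. On a scale chosen after the values were seen, per 1000 CPM of summed adipocyte markers, Klf15 was at 1.98 to 2.69 CPM in high-fat against 3.58 to 8.96 CPM in all 4 low-fat libraries, and Cebpa at 45.9 to 49.6 against 52.4 to 72.8 CPM. Ebf1, at 13.1 to 15 against 13.0 to 19.2 CPM, and Rxra, at 15.3 to 16.3 against 11.1 to 25.5 CPM, overlapped on that scale. Of the adipocyte markers, Adipoq, Plin1, Lipe, Cidec and Pnpla2 are also on the list of PPARg and C/EBPa targets described below. Without low-fat replicate 1 the low-fat ranges were 3.58 to 4.97 CPM for Klf15, 15.2 to 19.2 CPM for Ebf1, above all high-fat libraries, and 11.1 to 15.3 CPM for Rxra, at or below all of them.

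Related regulators were described from lists, with low-fat replicate 1 left out, where 23.5% of all genes were called lower and 47.0% in either direction. Several of the lists' counts lie near these shares, and the counts with all 8 libraries stand in brackets. Of 11 tested paralogues of the members, 7 were called lower and 2 higher (1 and 0 with all 8 libraries). Ebf2, a brown and beige fat determinant, was at 20.4 ± 1.84 CPM in high-fat and 40.6 ± 1.87 CPM in low-fat libraries (adjusted p = 5.17e-05), and Rxrg at 17.4 ± 1.79 and 35.9 ± 7.91 CPM (adjusted p = 0.000921). Of 15 other activators of adipogenesis, 8 were lower and 3 higher (3 and 1 with all 8). Nfia, a nuclear factor I protein, averaged 99.4 ± 5.49 CPM in high-fat and 204.0 ± 17.7 CPM in low-fat libraries, and Mlxipl, which encodes the glucose-sensing factor ChREBP, 71.5 ± 4.76 and 197.6 ± 65.9 CPM. Egr2 (log2 fold change 2.34, SE 0.458, adjusted p = 0.00613) and Klf4 (0.56, SE 0.077, adjusted p = 0.000562) were higher. The 17 inhibitors of adipogenesis split into 3 higher, with Wnt10b at 2.29 ± 0.289 against 0.671 ± 0.178 CPM, and 5 lower (0 and 1 with all 8). Of 15 coregulators, 6 were lower, among them Ppargc1a (-1.38, SE 0.253, adjusted p = 0.0031), and 1, Ncoa2, was higher (3 and 0 with all 8).

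Genes controlled by the members went both ways. Of 22 targets of PPARg and C/EBPa, 9 were lower and 6 higher without low-fat replicate 1 (4 and 2 with it). Cfd, which encodes the adipokine adipsin, averaged 411.3 ± 72.5 CPM in high-fat and 6196.9 ± 615.5 CPM in low-fat libraries (log2 fold change -3.92, SE 0.155, adjusted p = 6.46e-06). Slc2a4, the insulin-responsive glucose transporter, was at 100.3 ± 13.8 and 299.0 ± 29.5 CPM, and the adipokine Retn at 359.5 ± 35.1 and 887.2 ± 63.3 CPM. The lipid droplet protein gene Plin2 was higher, at 982.7 ± 75.2 against 464.3 ± 107.6 CPM, as were Fabp5 and Cd36. Of 8 LXR targets, 5 were higher and 2 lower (3 and 1 with all 8). The lipid transfer and efflux genes Pltp (1.47, SE 0.087), Abca1 (0.80, SE 0.134) and Abcg1 (0.72, SE 0.077) rose, and the desaturase gene Scd1 (-1.33, SE 0.117) and Apoe (-1.05, SE 0.076) fell, all with adjusted p of 0.0016 or less. Of 8 glucocorticoid-induced genes, 2 were higher (Sgk1 and Fkbp5), 1 was lower (Per1) and the rest were not called (1 higher and 1 lower with all 8 libraries). Klf15 thus shared its direction with Per1 and differed from Sgk1 and Fkbp5.

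**Figure D4:**
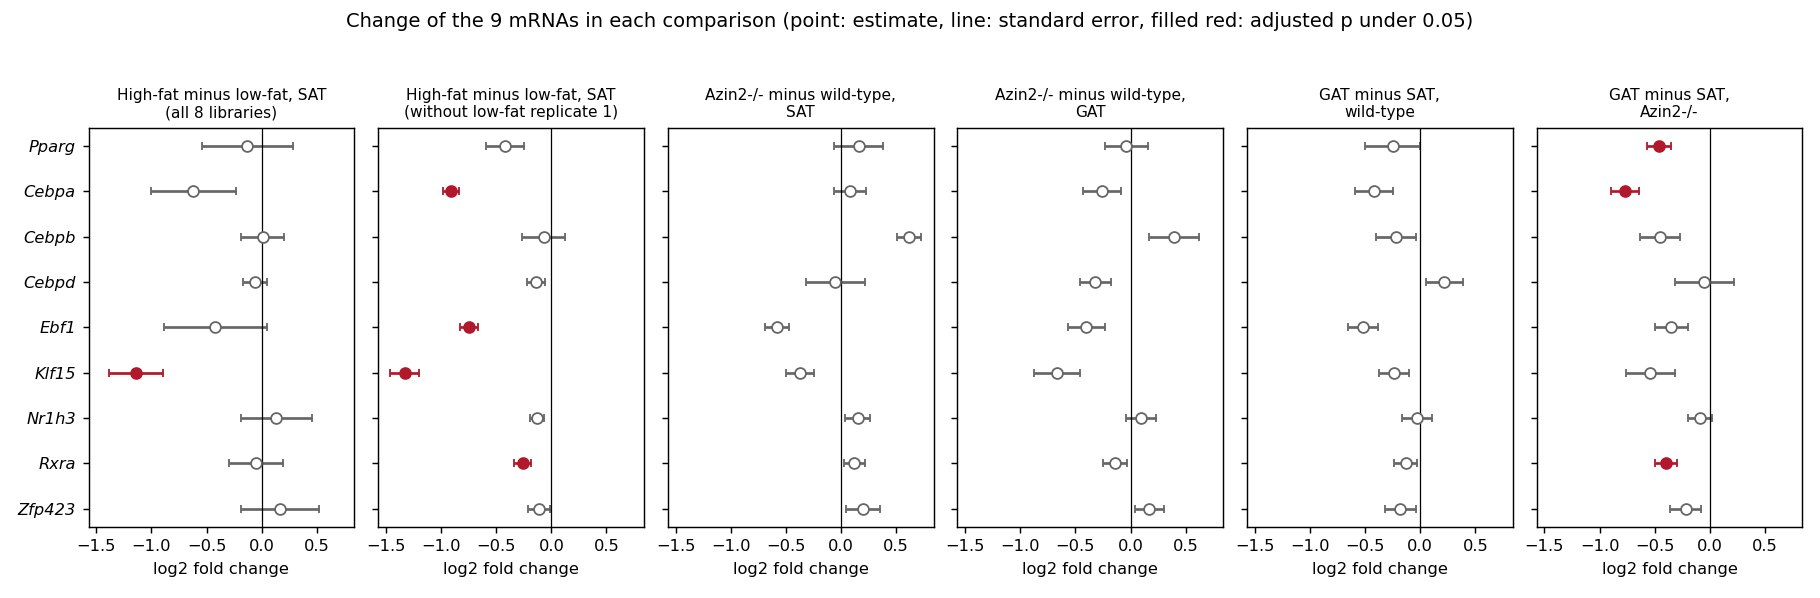
Log2 fold change (horizontal axis) with standard error of the 9 mRNAs in 6 comparisons, filled red where the adjusted p is under 0.05. Klf15 is called in both diet panels (-1.14 and -1.33), Cebpa, Ebf1 and Rxra in the second, no member in either genotype panel, and Pparg, Cebpa and Rxra between depots of Azin2-/- mice.

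Both experiments include wild-type SAT on the 60% fat diet, after 20 weeks in the first and 8 weeks in the second. Cebpa was at 654.8 ± 25.3 CPM at 20 weeks and 1041.9 ± 165.3 CPM at 8 weeks, Klf15 at 33.1 ± 5.64 and 67.4 ± 7.93 CPM, and Ebf1 at 193.2 ± 15.7 and 300.4 ± 36.4 CPM (SD, n = 4 and 5). The weeks on the diet differ together with the experiment, so the values are set side by side without a test.

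Deletion of Azin2 was compared with wild-type in SAT to ask whether the gene bears on these mRNAs in subcutaneous fat under 8 weeks of high-fat diet. None of the 9 members was called, against 0.00590% of all 16948 genes tested (1 gene by edgeR, while 1745 genes had an unadjusted p under 0.05). The members that came nearest were Cebpb, higher, and Ebf1 and Klf15, lower, in Azin2-/- SAT. These 3 did not overlap between genotypes, which held for 7.02% of all genes.

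Cebpb had 122.2, 132.4 and 104.5 CPM in Azin2-/- SAT, against 83.4, 82.3, 78.6, 66.7 and 79.1 CPM in wild-type SAT. Every Azin2-/- library was above every wild-type library, and the edgeR estimate was 0.62 in log2 units (SE 0.110) with adjusted p = 0.203. Ebf1 had 198.9, 186.7 and 216.8 CPM in Azin2-/- SAT, against 326.8, 290.3, 241.9, 312.4 and 330.8 CPM in wild-type SAT. Its log2 fold change was -0.58 (SE 0.113, adjusted p = 0.214). By DESeq2, which called 339 genes, the adjusted p was 0.000273 for Cebpb and 0.000425 for Ebf1. By limma-voom, which called 295 genes, Ebf1 was called (adjusted p = 0.0253). Klf15 had 45.8, 59.7 and 50.3 CPM in Azin2-/- SAT, against 63.3, 62.9, 69.4, 61.0 and 80.4 CPM in wild-type SAT, an estimate of -0.37 (SE 0.127) with adjusted p = 0.398.

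The 3 differences were of like size without the 2 muscle-rich libraries: 0.55 (SE 0.116) for Cebpb, -0.59 (SE 0.095) for Ebf1 and -0.47 (SE 0.124) for Klf15. With Zfp423 (0.33, SE 0.120, adjusted p = 0.299) 4 members did not overlap in those 6 libraries, against 26.1% of all genes. Pparg, Cebpa and Rxra averaged 240.6 ± 8.97, 1099.3 ± 115.0 and 303.9 ± 25.4 CPM in Azin2-/- SAT (n = 3), and 216.4 ± 64.2, 1041.9 ± 165.3 and 279.2 ± 13.2 CPM in wild-type SAT (n = 5), with adjusted p of 0.826, 0.864 and 0.689. The summed markers overlapped between genotypes, at 15857.1 to 20439.2 CPM in Azin2-/- and 16369.1 to 21350.8 CPM in wild-type SAT for adipocytes, and at 399.3 to 755.3 and 414.2 to 642.1 CPM for macrophages. Per 1000 CPM of adipocyte markers, Ebf1 was at 10.6 to 11.8 CPM in Azin2-/- and 14.8 to 19.2 CPM in wild-type SAT, and Cebpb at 5.11 to 8.35 and 3.47 to 4.95 CPM, while Klf15 overlapped at 2.46 to 3.77 and 3.17 to 4.24 CPM. No gene of the other regulator and target lists was called in this comparison.

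In GAT the same comparison again called none of the 9 members, here against 6.77% of all 16778 genes tested (1136 by edgeR, with 4819 at an unadjusted p under 0.05). Klf15 was the nearest, with 49.7, 30.1, 26.7 and 36.5 CPM in Azin2-/- GAT against 73.7, 51.8, 46.6 and 57.7 CPM in wild-type GAT. Azin2-/- replicate 1 overlapped the wild-type range and the other 3 libraries lay below it. The log2 fold change was -0.67 (SE 0.210, adjusted p = 0.0863). It was called without Azin2-/- replicate 1 (-0.88, adjusted p = 0.0133), by DESeq2 (adjusted p = 0.0185) and by limma-voom (adjusted p = 0.00314). Over all genes, those settings called 2672 of 17053, 3083 of 16778 and 6454 of 16778, in that order. Ebf1 had 199.3, 140.2, 132.8 and 159.2 CPM in Azin2-/- GAT, against 222.6, 233.8, 152.7 and 233.3 CPM in wild-type GAT (-0.40, SE 0.172, adjusted p = 0.165). The wild-type value of 152.7 is replicate 3, the library with epididymal transcripts, and without it the groups did not overlap (-0.52, SE 0.137, adjusted p = 0.0535). The same held for Cebpa, Klf15 and Rxra without that library, 4 members in all, against 24.5% of all genes. None of them was called, against 7.94% of all genes.

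Cebpb had 60.9, 95.9, 99.7 and 95.8 CPM in Azin2-/- GAT, against 93.9, 70.1, 44.3 and 61.5 CPM in wild-type GAT. The lowest Azin2-/- library lay within the wild-type range and 3 of 4 wild-type libraries lay within the Azin2-/- range, and the log2 fold change was 0.39 (SE 0.227, adjusted p = 0.279). Cebpd (-0.32, SE 0.140, adjusted p = 0.171) and Cebpa (-0.26, SE 0.171, adjusted p = 0.334) had negative values, and Pparg, Nr1h3, Rxra and Zfp423 lay between -0.14 and 0.17. Macrophage markers summed to 1004 to 2263 CPM in Azin2-/- and 594.5 to 854.2 CPM in wild-type GAT, with 9 of 10 called higher, and adipocyte markers to 11157.2 to 13658.5 and 12472.5 to 19231.9 CPM, with 1 of 8 called lower. Of 9 progenitor markers, 2 were called higher. The part of cell composition was not tested here either. Per 1000 CPM of adipocyte markers, Klf15 overlapped, at 2.21 to 3.64 in Azin2-/- and 3.0 to 4.59 CPM in wild-type GAT.

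Few related regulators were called in GAT. Of 15 coregulators, Tle3, which encodes a partner of PPARg in fat cells, was lower at 129.1 ± 9.82 CPM in Azin2-/- and 171.2 ± 4.17 CPM in wild-type GAT (adjusted p = 0.0408), and so was the corepressor gene Nrip1 at 58.3 ± 7.35 and 100.4 ± 18.3 CPM (adjusted p = 0.0408). The triglyceride lipase gene Pnpla2 was the only one of 22 PPARg and C/EBPa targets called (-0.66, SE 0.160, adjusted p = 0.0473), and Pltp the only one of 8 LXR targets (1.17, SE 0.205, adjusted p = 0.0408). No member of the lists of other activators, paralogues and inhibitors was called. Leaving out Azin2-/- replicate 2, 3 or 4 or wild-type replicate 2 or 4 took the count over all genes to 0 or 1, so at most 1 of these 4 calls holds in any of those settings.

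The difference of the Azin2 effect between GAT and SAT was tested directly and called no member and no gene of 18033 by edgeR, with 2016 genes at an unadjusted p under 0.05. DESeq2 called 161 genes and no member, and limma-voom 2718 genes and the members Rxra and Cebpa. The direct estimates for Cebpb (-0.22, SE 0.277), Ebf1 (0.17, SE 0.211) and Klf15 (-0.30, SE 0.258) had adjusted p of 0.783, 0.779 and 0.677. An Azin2 effect on these genes was therefore not shown to differ between depots.

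GAT was compared with SAT within each genotype to describe the members by depot under 8 weeks of high-fat diet. In wild-type mice, no member was called, against 4.33% of all 17030 genes (738 by edgeR, with 3735 at an unadjusted p under 0.05). Ebf1 was the 1 member whose depots did not overlap, with 222.6, 233.8, 152.7 and 233.3 CPM in GAT against 326.8, 290.3, 241.9, 312.4 and 330.8 CPM in SAT. Such separation held for 10.1% of all genes. The log2 fold change was -0.52 (SE 0.139, adjusted p = 0.0702), and -0.46 (SE 0.078, adjusted p = 0.0148) without the 2 wild-type libraries that held muscle or epididymal transcripts, where 6.67% of all genes were called. No adipocyte marker and 1 of 10 macrophage markers were called between the wild-type depots. Ebf3, a paralogue of Ebf1, was called lower in GAT at 34.4 ± 9.60 against 65.2 ± 6.84 CPM in SAT (adjusted p = 0.0164), as was Rxrg at 14.7 ± 2.86 against 29.4 ± 7.40 CPM (adjusted p = 0.026). The thermogenic coregulator genes Prdm16 (-1.21, SE 0.128, adjusted p = 0.00176) and Ppargc1a (-1.45, SE 0.190, adjusted p = 0.00464) were lower in GAT too. With the animal mark in the titles as a block, 0 of 17030 genes were called between wild-type depots, so none of these calls held there. That fit rests only on the libraries whose mark occurs in both depots, among them the 2 with muscle or epididymal transcripts. It therefore has fewer libraries to work with than the main fit.

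In Azin2-/- mice, 3 of 9 members were called, all lower in GAT, against 15.2% of all 16800 genes in either direction and 6.04% lower. All 9 had negative log2 fold changes, with a median of -0.40 beside -0.03 over all genes. Cebpa had 721.0, 587.3, 672.8 and 589.0 CPM in GAT against 973.3, 1126.0 and 1198.6 CPM in SAT, -0.77 in log2 units (SE 0.130, adjusted p = 0.0189). Pparg had 203.6, 165.6, 164.2 and 168.7 CPM in GAT against 230.7, 248.1 and 242.9 CPM in SAT (-0.46, SE 0.107, adjusted p = 0.0333). Rxra had 249.0, 221.6, 217.5 and 234.3 CPM in GAT against 279.0, 329.9 and 302.8 CPM in SAT (-0.40, SE 0.101, adjusted p = 0.0405). None of the 3 overlapped between depots, and Cebpb did not either (-0.45, SE 0.182, adjusted p = 0.13), against 31.1% of all genes without overlap.

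No member was called without GAT replicate 2, 3 or 4 or SAT replicate 3, nor in a fit of all 24 libraries. Without those single libraries the estimates were -0.73 to -0.79 for Cebpa, -0.41 to -0.47 for Pparg and -0.36 to -0.42 for Rxra. Over all genes, the same left-out fits called 36, 278, 218 and 40 genes, in that order, against 2549 with all libraries. The marker and list calls below are from the fit with all libraries and were not followed through those left-out fits. Without GAT replicate 1, 5 members were called, beside 2950 of all 16604 genes. Without the muscle-rich SAT replicate 2, 4 members were called, against 14.7% of all genes. Some SAT and GAT titles of the same genotype share an animal mark, and whether those libraries come from the same mouse is not given in the labels. With the mark as a block, the estimates were -0.88 for Cebpa, -0.57 for Pparg and -0.52 for Rxra, none of them called (adjusted p of 0.0964, 0.133 and 0.172), and Klf15 was called instead (-0.95, adjusted p = 0.0391). Only the marks LR and no occur in both depots of Azin2-/- mice. The block estimates therefore rest on those few libraries alone, the muscle-rich SAT replicate 2 among them, and are not a paired test of all libraries. Adipocyte markers were lower along with the members, with 5 of 8 called and sums of 11157.2 to 13658.5 CPM in GAT against 15857.1 to 20439.2 CPM in SAT, and all 10 macrophage markers were called higher, with sums of 1004 to 2263 against 399.3 to 755.3 CPM. Per 1000 CPM of adipocyte markers, Pparg overlapped between depots, at 13.6 to 14.9 CPM in GAT and 11.9 to 15.6 CPM in SAT, as did Rxra at 18.0 to 20.1 and 14.8 to 20.8 CPM and Cebpa at 50.5 to 55.8 and 55.3 to 71.0 CPM. Because some of these markers are themselves listed PPARg and C/EBPa targets, this scale cannot separate fat cell content from target levels. Of the 22 PPARg and C/EBPa targets, 8 were lower and none higher, among them Agpat2 at 393.4 ± 49.5 CPM in GAT and 761.5 ± 115.5 CPM in SAT, Acsl1 at 1532.4 ± 133.5 and 2980.2 ± 578.3 CPM, and Gpd1 at 1099.1 ± 161.6 and 2059.1 ± 136.1 CPM. Of the 15 other activators, 6 were lower, including Srebf1 (-0.65, SE 0.114, adjusted p = 0.0199), and Egr2 was higher (2.03, SE 0.547, adjusted p = 0.0474).

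After each gene's group mean was subtracted on the log2 scale, all 36 pairs were positively correlated over the 24 libraries, and 11 pairs passed adjustment over the 36 by Pearson's r (7 by Spearman's rho, permutation tests within groups). Klf15 and Rxra had r = 0.841 and rho = 0.862, each with an adjusted permutation p of 0.00072, and r = 0.799 without the 2 libraries farthest from the median. Cebpa and Ebf1 had r = 0.944 (adjusted permutation p = 0.0107) and rho = 0.76 (adjusted permutation p = 0.0363), with r = 0.797 without the 2 farthest libraries. Without the 6 libraries left out for other tissue (low-fat replicate 6 stayed in), 22 of 36 pairs were positive and r was 0.375 for Cebpa and Ebf1. In that setting 5 of 36 pairs passed by r and none by rho. The 4 positive pairs were then Ebf1 with Klf15 (r = 0.824), Klf15 with Rxra (r = 0.773), Cebpa with Rxra (r = 0.733) and Cebpa with Klf15 (r = 0.659). Pparg and Nr1h3 were negatively related (r = -0.618, rho = -0.641, adjusted permutation p of 0.0487 and 0.0756). The libraries share their normalisation, and the part of their fat cell content was not tested.

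Among 12061 protein-coding genes, those with the group pattern nearest to each member were found by the root mean square difference of centred log2 means over the 6 groups. For Cebpa they were Ybx3 (0.038), Atp5e (0.046) and Plin1 (0.049), the last a lipid droplet coat protein gene of fat cells. For Ebf1 they were Syn3 (0.058), Myl9 (0.061) and Prr5l (0.066), and for Klf15 Irak1bp1 (0.084), Sh3d21 (0.092) and Kyat3 (0.097). For Pparg they were Grpel1, Tmed1 and Epb41l1 (0.037 to 0.044), for Rxra Ankrd40, Lysmd1 and Aes (0.028 to 0.039), and for Cebpb Myo18a, Slc25a5 and Sc5d (0.065 to 0.090). For Cebpd they were Emc9, Akip1 and Rgma (0.065 to 0.073), for Nr1h3 Yipf3, Parp3 and Scamp3 (0.027 to 0.029), and for Zfp423 Dcaf5, Ccnyl1 and Tnfaip1 (0.030 to 0.034). The members themselves ranged over 0.41 (Zfp423) to 1.07 (Klf15) on the same scale. The low-fat means in these patterns and ranges include low-fat replicate 1. In that library Cebpa was at 317.0 CPM and Plin1 at 731.7 CPM, against 1103.8 to 1323.7 and 3484.7 to 3580.6 CPM in the rest of its group.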

How the data were processed

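The members and gene lists were chosen with earlier results of these data known. Whole adipose tissue RNA was extracted with a NucleoSpin kit and made into stranded total RNA libraries, per the labels' protocols. The authors deposited raw read counts per Ensembl gene, 1 table per library. Cutadapt, STAR and HTSeq 0.6.1p1 with GRCm38 (mm10) were used, per the submitters' processing notes, and the strand setting and annotation version at counting appear in no source used here. Of 49585 identifiers, 49326 were matched to GENCODE M21, which gave symbols and exonic lengths. No 2 libraries of a group agreed within sampling noise.

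Counts were tested per comparison with edgeR 4.0.16 in R 4.3.3 (filterByExpr with a minimum count of 10 and a minimum total of 15, TMM, robust quasi-likelihood test), and p-values were adjusted by Benjamini-Hochberg over all genes tested. A gene was called at an adjusted p under 0.05. The scripts were tested on simulated data. Normalised CPM and FPKM use TMM factors over all 24 libraries. Named genes are all members, Azin2, up to 3 called genes of smallest p per direction and list, and the 3 nearest patterns per member. Alternatives were DESeq2 1.42.0, limma-voom 3.58.1 with quality weights, other scaling and filters, a joint fit, replicate blocks, and left-out libraries. Some titles in SAT and GAT, or in both genotypes, carry the same animal mark. The labels do not say that a mark is 1 animal, and numbers and marks were not taken as pairs. The labels do not say beyond numbers and marks that libraries are separate animals, so p-values measure the spread between these libraries. Correlations used 100000 permutations within groups.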

Additional observations from a re-analysis of the deposited data

Results flagged for a closer look

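Within each group of 4 or 5 libraries, the highest or lowest value was compared with its nearest neighbour relative to the group's range (Dixon's 95% limits). Of 45 such sets of member values, 7 had a library far from the others, where chance gives about 1 in 20. In low-fat replicate 1 (labelled SAT), Ebf1 was at 57.7 CPM and Nr1h3 at 35.5 CPM, both far below the other low-fat libraries, and this library held 19476.6 CPM of epididymis markers. In GAT wild-type replicate 3, the other library with epididymal transcripts, Ebf1 was low at 152.7 CPM. In GAT Azin2-/- replicate 1, Pparg was high at 203.6 CPM and Cebpb low at 60.9 CPM. In SAT wild-type libraries, Cebpb was low in replicate 4 at 66.7 CPM and Nr1h3 high in replicate 5 at 126.5 CPM. No member's Azin2 effect was called as different between depots.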

How the results depend on the processing

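The number of members called depended on the test and on single libraries. For diet, 1 member was called, 3 by limma-voom, 3 with the replicate block, 5 without the 3 libraries with other tissue, and 0 to 4 when 1 library was left out. For Azin2 deletion in SAT, 0 were called, 2 by DESeq2, 1 by limma-voom and 0 under each left-out library. In GAT, 0 were called, 1 by DESeq2, 5 by limma-voom, 1 with the replicate block (Klf15) and 0 to 1 with 1 library left out. Between depots in wild-type, 0 were called, 1 by DESeq2, 2 by limma-voom, 1 without the 2 libraries with other tissue and 0 to 1 with 1 left out. Between depots in Azin2-/-, 3 were called, 6 by limma-voom, 0 with all 24 libraries in 1 fit, 1 with the replicate block (Klf15, none of the 3) and 0 to 5 with 1 left out. For the difference of the Azin2 effect, 0 were called, 2 by limma-voom and 0 with 1 left out. Correlated pairs fell to 5, against 11. With the replicate block, libraries without a partner of the same number or mark, such as low-fat replicate 1 for diet, add nothing to the estimate. The cause of these differences was otherwise not tested.

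Genes called over the whole table moved likewise. For diet the 3622 genes became 7985 by limma-voom, 2335 with no filter, 6056 in the joint fit, 5867 with the block, 6701 without 3 libraries and 1802 to 8109 with 1 left out. For SAT genotype the 1 gene became 339 by DESeq2, 295 by limma-voom, 13 in the joint fit, 0 with the block, 8 without 2 libraries and 0 to 4 with 1 left out. For GAT genotype the 1136 became 3083, 6454, 0 with no filter, 1716 with the block and 0 to 2672 with 1 left out. Between wild-type depots the 738 became 1784, 2454, 490 with no filter, 0 with the block, 1136 without 2 libraries and 296 to 909. Between Azin2-/- depots the 2549 became 4387, 6631, 1099 with the block and 36 to 3414. For the difference of effects the 0 became 161, 2718 and 0 to 107 (the first 2 values of each of these are DESeq2 and limma-voom).

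Signs turned only for genes that were not called in the fit of all libraries of a comparison. Rxra, called for diet without low-fat replicate 1, and Pparg and Zfp423, called without 3 libraries, were among them. For diet, Nr1h3 was -0.12 by limma-voom, -0.15 with the block and -0.15 without 3 libraries, Zfp423 -0.12, -0.08 and -0.26 in the same order, and Cebpb -0.07 with the block and -0.07 without 3 libraries. With 1 library left out, Pparg ranged from -0.42 to 0.20, Nr1h3 from -0.13 to 0.26, Rxra from -0.26 to 0.07, Zfp423 from -0.11 to 0.34 and Cebpb from -0.09 to 0.23. For SAT genotype, Nr1h3 was -0.05 and Cebpd 0.03 with the block, and Cebpd ranged from -0.43 to 0.12. For GAT genotype, Pparg was 0.11 with the block and ranged from -0.15 to 0.19, and Nr1h3 was -0.05 by limma-voom and ranged from -0.03 to 0.17. Between wild-type depots, Nr1h3 was 0.15 by limma-voom and 0.10 without 2 libraries, ranging from -0.10 to 0.09. Between Azin2-/- depots, Nr1h3 was 0.04 and Cebpd 0.09 with the block, and Cebpd was 0.34 by limma-voom and ranged from -0.23 to 0.34. For the difference of effects, limma-voom gave Azin2 -0.06, Cebpb 0.04, Ebf1 -0.04 and Cebpd 0.09, the block gave Nr1h3 0.21, Zfp423 0.13, Cebpb 0.02 and Ebf1 -0.03, and Cebpd was 0.18 without 3 libraries. There the ranges were -0.33 to 0.03 for Pparg, -0.19 to 0.01 for Nr1h3, -0.19 to 0.10 for Zfp423 and -0.44 to 0.12 for Cebpd.

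The replicate block used the number in the titles for diet and otherwise the animal mark in the titles, which is not the replicate number printed here. Neither was taken to pair the libraries: deviations of libraries with the same number or mark correlated at 0.213, -0.156 and 0.057 in the diet groups, 0.787 and 0.427 for genotype in SAT (2 pairs only), 0.019, -0.174 and -0.115 for genotype in GAT, 0.338, -0.043 and -0.018 between wild-type depots, and -0.099 and 0.027 between Azin2-/- depots. The value of 0.787 was between the 2 muscle-rich SAT libraries, Azin2-/- replicate 2 and wild-type replicate 3. A library whose number or mark is absent from the other group adds nothing to the estimate with the block. For diet this applies to low-fat replicate 1 and high-fat replicate 4, and for genotype in GAT to replicate 1 of each genotype. Mean levels as CPM of the total count moved by more than 1 SD for Pparg in SAT of Azin2-/- mice (222.4) and Zfp423 in GAT of Azin2-/- mice (73.2). Every member had 510 or more reads in each library, and the effect of depth on the calls was not tested.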
